A study of Mus musculus with 4 samples.

Results

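Bone morphogenetic protein (BMP) signalling was followed through 10 genes that act outside the cell: the ligand genes Bmp2, Bmp4, Bmp5, Bmp7 and Gdf10, the protease gene Bmp1, and the genes Nog, Grem1, Chrdl1 and Fstl1, whose products bind ligands. They were chosen by name, with earlier results of these data known, and were 10 of the 22716 genes listed over 4 count matrices of the mouse sciatic nerve. All 10 were listed in 3 of the matrices, and 9 in that of the uninjured nerve, where Grem1 was not listed. BMP ligands are secreted dimers that bind receptor serine/threonine kinases, after which SMAD1, SMAD5 and SMAD9 enter the nucleus and act on targets such as the Id genes. Secreted proteins such as noggin, gremlin and the chordin family hold the ligands away from their receptors, and proteases of the BMP1 and tolloid family cleave chordin and release them. BMP1 is not itself a BMP ligand, and it is also the protease that removes the carboxyl end of fibrillar procollagens. In peripheral nerve, BMPs are known as signals to Schwann cell precursors, blood vessels and injured neurons.

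The 10 genes lie on 6 mouse chromosomes of the build GRCm38 (mm10), by the RefSeq annotation. Bmp1 (chr14:70474555-70520716), Bmp4 (chr14:46383525-46390669) and Gdf10 (chr14:33923587-33936514) are on the same chromosome, with Bmp1 and Bmp4 on the minus strand. Bmp2 (chr2:133552159-133562896), Bmp7 (chr2:172868012-172940321) and Grem1 (chr2:113748675-113758648) share another. The others are Bmp5 (chr9:75775365-75900316), Nog (chr11:89300638-89302559), Chrdl1 (chrX:143285674-143394263) and Fstl1 (chr16:37777055-37836516).

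Cells were profiled by Drop-seq, which tags each transcript with a unique molecular identifier (UMI) and counts transcripts near their 3′ end, in wildtype CD1 mice, an outbred stock, that carried no transgene. There was 1 library from the distal segment of adult nerve at 3 days post-injury (3 DPI) by resection, 1 from uninjured adult nerve, and 2 from neonatal nerve. The 3 DPI and uninjured libraries and the neonatal library of postnatal days 2 to 3 were cleared with myelin removal beads, and the neonatal library of postnatal days 3 to 4 was sorted by FACS as nucleated living cells. The resected nerve was kept from regrowing, so the 3 DPI cells come from nerve without axonal contact. How many mice contributed to a library, and whether nerves were pooled, is not stated.

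The matrices held 4513814 to 8123103 UMIs and 2000 to 6200 barcodes, and 1837 to 5420 cells were kept per library, with a median of 996.5 to 1797.5 UMIs per cell. Pairs of libraries shared 0 to 3 barcodes. With 1 library a group there is no replicate error and no test of a condition. Levels are given as CPM, the UMIs of a gene per 1000000 UMIs of all cells in a class, and all intervals are exact 95% intervals that cover counting error only. A difference between libraries cannot be told apart from a difference between preparations, and p-values were not computed. UMIs of Schwann cell markers were found outside the Schwann-like class at 902 to 1635 CPM in the neonatal FACS library, 213 to 631 in the neonatal bead library, 59.3 to 293 in the uninjured and 17.9 to 98.5 in the 3 DPI library. The part of such stray UMIs in the low levels given here was not tested. The UMIs of a gene per 1000 UMIs of 5 mesenchymal genes (Dcn, Col1a1, Col1a2, Col3a1 and Lum) are also given in places. They stand beside some levels of Bmp1, Nog, Chrdl1 and Fstl1 outside the mesenchymal classes, and not beside the others.

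Cells were classed from clusters by marker genes, with the 10 genes and the rest of the pathway kept out of the genes used for clustering. The adult libraries held endoneurial-like cells (277 at 3 DPI and 419 uninjured), epineurial-like cells (267 and 88), Schwann-like cells (143 and 358), endothelial-like cells (246 and 418) and cells like vascular smooth muscle and pericytes (VSM/pericyte-like, 80 and 183). A further mesenchymal class of 168 and 288 cells was led by Inmt, Comp and Sfrp4. Its score on the epineurial markers was 0.345 at 3 DPI and 0.393 in uninjured nerve, under the minimum of 0.5, so it is called Comp-led. Bridge-like cells (319) and a dividing mesenchymal class (149) were found only in the 3 DPI library, and 67 perineurial-like cells in the uninjured but none in the 3 DPI library. The neonatal libraries had 108 and 266 endoneurial-like, 399 and 296 epineurial-like and 110 and 298 perineurial-like cells, in the order FACS and beads, and their 1219 and 3673 Schwann-like cells were the largest class. The uninjured immune-like class had only 16 cells and is not used further, against 513 at 3 DPI.

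The genes fell into 3 patterns that were seen in each library. Bmp2 and Bmp5 had their highest CPM in VSM/pericyte-like cells in all 4 libraries. For Bmp2 the neonatal lead was small, at 1.33 times the immune-like level (FACS) and 1.36 times the endothelial-like level (beads). By share of cells with a Bmp2 UMI, those 2 classes were the highest. Bmp1, Bmp7, Gdf10, Nog, Chrdl1 and Fstl1 had their highest CPM in a mesenchymal-like class in all 4. For Bmp7 it was the endoneurial-like class, and for the other 5 the epineurial-like or Comp-led class. Bmp4 was shared by endothelial-like and Comp-led or epineurial-like cells. The higher of these led by only 1.02 times at 3 DPI, 1.14 in uninjured nerve and 1.31 in the FACS library. In the bead library the endothelial-like level was 2.55 times the epineurial-like level. Of the 9 genes with at least 20 UMIs in the named classes, 6 peaked in one of the mesenchymal-like classes at 3 DPI, 7 in uninjured nerve, 7 in the neonatal FACS and 6 in the neonatal bead library. Over all genes with at least 20 UMIs the share was 37.4% at 3 DPI, 37.0% in uninjured nerve, 26.7% in the FACS and 28.7% in the bead library.

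Mesenchymal-like classes were 54.6% of the named cells at 3 DPI and 46.9% in uninjured nerve. Of the UMIs in named classes they held 95.4% for Gdf10, 95% for Chrdl1, 94.8% for Fstl1, 94.3% for Bmp7 and 83.4% for Bmp1 at 3 DPI. The same shares in the uninjured nerve were 97.1%, 90.9%, 86.0%, 92.9% and 86.2%. For Bmp2 the share was 43.6% and 30.7%, and for Bmp4 33.6% and 42.9%, near or below the share of cells. Among neonatal cells, of which 28.2% (FACS) and 15.9% (beads) were mesenchymal-like, the share of Bmp1 was 60.9% and 31.9%, and the Schwann-like class held 160 of 530 and 408 of 762 of its UMIs.

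**Figure D1:**
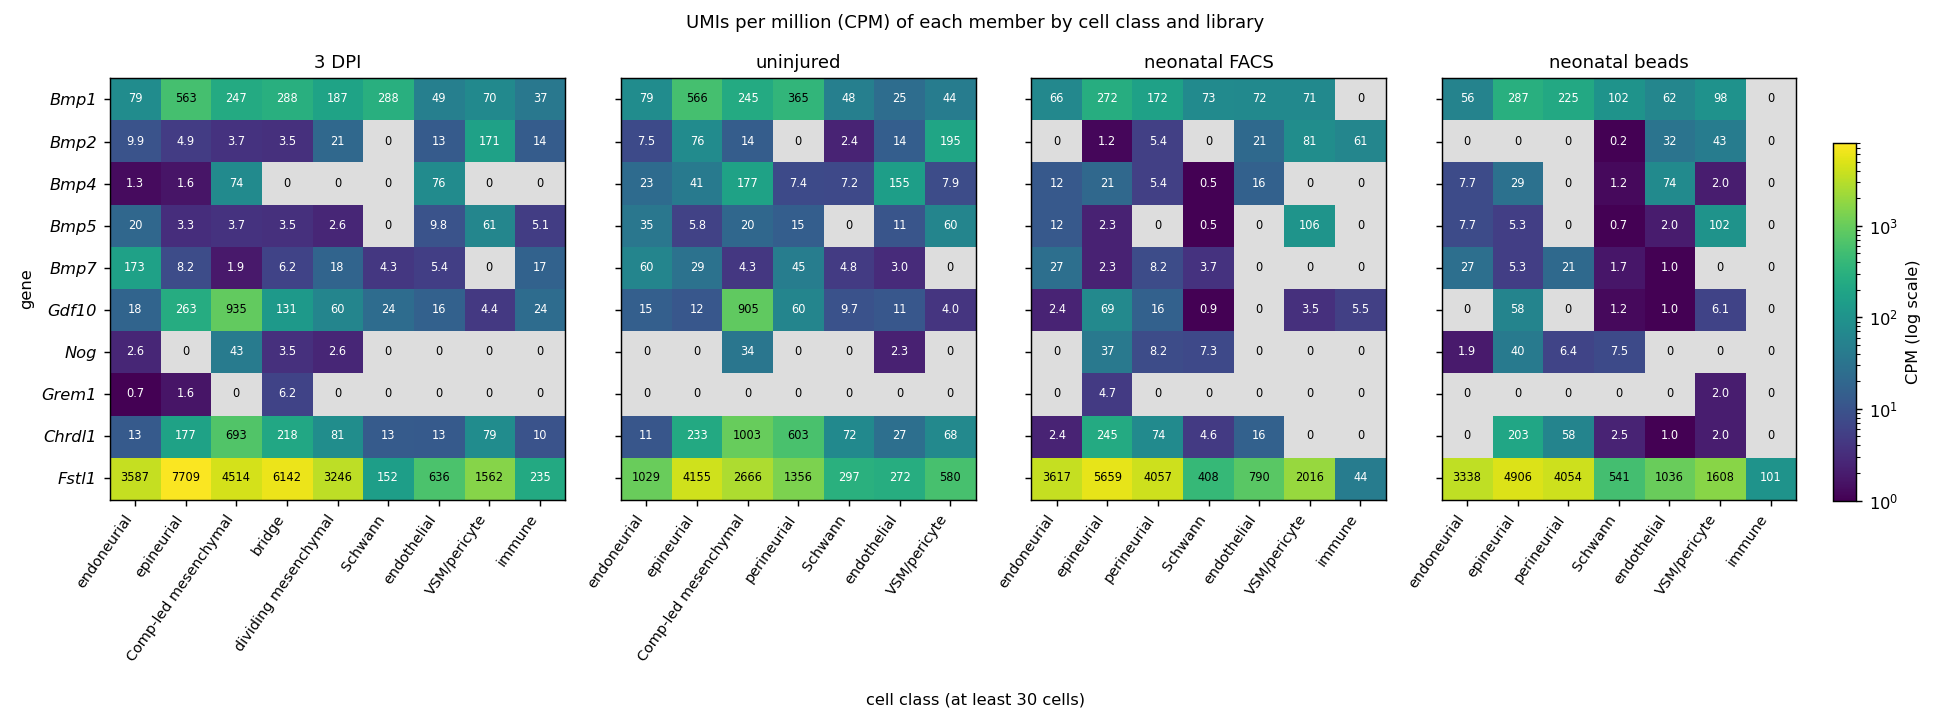
Level of the 10 genes (CPM, colour on a log scale, grey where no UMI was found) in each class of at least 30 cells of the 4 libraries. Bmp2 and Bmp5 peak in VSM/pericyte-like cells, Bmp7 in endoneurial-like cells, and Gdf10, Chrdl1 and Nog in the Comp-led class of adult nerve or the epineurial-like class of neonatal nerve.

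Bmp2, a ligand of the same subgroup as Bmp4, had its highest level in cells of the vessel wall. In VSM/pericyte-like cells its level was 171 CPM (interval 121 to 233, 39 UMIs) at 3 DPI and 195 CPM (144 to 257, 49 UMIs) in uninjured nerve. These adult levels did not differ beyond counting error, at a ratio of 0.876 (0.560 to 1.36). The neonatal levels were 81.1 CPM (51.4 to 122, 23 UMIs) in the FACS and 42.8 CPM (26.5 to 65.4, 21 UMIs) in the bead library. Both were below the uninjured level, at ratios of 0.416 (0.242 to 0.697) and 0.220 (0.125 to 0.373), the first becoming 0.524 when each cell was classed from its own markers. Endothelial-like cells had 13.4 CPM at 3 DPI, 14.5 in uninjured, 21.4 in FACS and 31.5 in bead cells. Of the 19 uninjured endothelial UMIs, 15 were in the cluster led by Selp, a gene of venous endothelium (27.9 CPM, 15.6 to 46.0), and 7 of the 19 were in 1 cell. The Slco1a4-led cluster had 0 UMIs in 150 cells, with an upper bound of 8.02 CPM.

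Outside the vessels Bmp2 was low per cell but not absent. At 3 DPI mesenchymal-like classes held 48 of its 110 UMIs, against 39 in VSM/pericyte-like cells. The dividing mesenchymal class had 20.9 CPM (13.4 to 31.0, 24 UMIs in 12 cells), the second-highest level of that library. Of these UMIs 7 were in 1 cell, without which the level was 14.9 CPM. The endoneurial-like class had 9.91 CPM (5.55 to 16.4, 15 UMIs). The uninjured epineurial-like cells had 75.9 CPM (40.4 to 130) from 13 UMIs, of which 4 were in 1 cell, and at 3 DPI the class had 4.91 CPM from 3 UMIs. The neonatal immune-like cluster was led by a mix of genes, Cma1, Tpsb2, S100a8, Pf4, Cpa3, Lyz2, S100a9, Mrc1, C1qa and Fcer1g. Which of its cell types held Bmp2 was not tested. In the neonatal FACS library the immune-like class had 60.9 CPM (30.4 to 109) from 11 UMIs in 10 of 79 cells. No UMI was found in the 38 immune-like cells of the bead library, where the upper end of the interval, 93.1 CPM, lies above that level. The 3 DPI immune-like cluster led by Cma1, Mcpt4, Cpa3 and Tpsb2, and then by Ccl5, Gzma and Nkg7, had 3 UMIs in 83 cells (41.1 CPM, 8.48 to 120).

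Bmp5, a ligand of the subgroup of Bmp7, had the same leading class with less change. Its VSM/pericyte-like level was 61.3 CPM (33.5 to 103) at 3 DPI, 59.6 (33.4 to 98.3) in uninjured nerve, 106 (71.4 to 151) in FACS and 102 (75.6 to 134) in bead cells. The intervals of the 4 libraries overlap, and the neonatal ratios to uninjured nerve, 1.77 (0.925 to 3.55) and 1.71 (0.945 to 3.28), include 1. Endoneurial-like cells were next, with 19.8 CPM at 3 DPI, 34.7 in uninjured, 12.2 in FACS and 7.71 in bead cells. The bead level was 0.222 times the uninjured one (0.0575 to 0.618, 4 against 37 UMIs). The FACS ratio of 0.350 (0.107 to 0.894) rested on 5 UMIs and turned to 1.55 when cells were thinned to 500 UMIs each. Schwann-like cells had 0 UMIs in both adult libraries, and 1 and 3 UMIs in the 1219 and 3673 neonatal cells.

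Bmp4 was a gene of endothelial-like and Comp-led cells in the adult nerve, and was lower at 3 DPI in the 4 classes that had a Bmp4 UMI in both adult libraries. In uninjured nerve it reached 155 CPM (135 to 178, 204 UMIs) in endothelial-like cells and 177 CPM (148 to 211, 124 UMIs) in Comp-led cells, levels that did not differ beyond their intervals. At 3 DPI these levels were 76.1 CPM (60.8 to 94.1, 85 UMIs) and 74.4 CPM (53.1 to 101, 40 UMIs). Endoneurial-like cells went from 23.5 CPM (25 UMIs in 419 cells) to 1.32 CPM (2 UMIs in 277 cells), although the 3 DPI cells were deeper, with a median of 4400 against 2157 UMIs. Epineurial-like cells had 40.9 CPM from 7 UMIs in uninjured nerve and 1.64 CPM from 1 UMI at 3 DPI. No Bmp4 UMI was found at 3 DPI in the bridge-like, dividing mesenchymal, Schwann-like, VSM/pericyte-like or immune-like class, where the upper ends of the intervals are 3.21 to 16.1 CPM.

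The ratio of 3 DPI to uninjured Bmp4 was 0.0564 (0.00647 to 0.226) in endoneurial-like and 0.419 (0.286 to 0.603) in Comp-led cells. Both stayed under 0.5 in every other processing that could be run for them. In endothelial-like cells it was 0.490 (0.376 to 0.634), but 0.974 after thinning to 500 UMIs per cell, 0.540 without doublet removal and 0.548 without the cell with the most UMIs in each library. That cell held 37 of the 204 uninjured UMIs. The share of endothelial-like cells with a UMI was 16.7% at 3 DPI and 19.4% in uninjured nerve, at median depths of 2043.5 and 1868 UMIs. The summed level was thus lower while a difference in the share of cells was not detectable at this depth.

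Uninjured endothelial-like cells were not uniform for Bmp4. In the Selp-led cluster of 134 cells 36.6% had a UMI, with 202 CPM (166 to 244). The Slco1a4-led cluster of 150 cells had 14.7% and 86.9 CPM (62.1 to 118), and the Rbp7-led cluster of 134 cells 7.46% and 175 CPM (132 to 228). In the last, few cells thus held many UMIs. Neonatal endothelial-like cells had 16.1 CPM (6 UMIs) in the FACS and 73.9 CPM (75 UMIs) in the bead library, 0.103 (0.0375 to 0.229) and 0.475 (0.360 to 0.622) times the uninjured level, and the preparations differed from each other beyond counting error.

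Bmp7, a ligand known from kidney and skeleton, had its highest level in endoneurial-like cells, the fibroblasts between the nerve fibres. Its level there was 173 CPM (153 to 195, 262 UMIs) at 3 DPI, 60.0 CPM (46.2 to 76.7, 64 UMIs) in uninjured nerve, and 26.8 CPM (13.4 to 47.9) and 27.0 CPM (14.8 to 45.3) in FACS and bead cells. The 3 DPI level was 2.88 times the uninjured level (2.19 to 3.85) and the order was adult injured, adult uninjured, neonatal, with no difference beyond counting error between the neonatal preparations. The 3 DPI endoneurial-like cells were also the deeper class. With cells thinned to 500 UMIs the ratio was 1.61 and the share of cells with a UMI 5.08% against 3.16%, and with cells classed from their own markers the ratio was 1.88, so the call of a 2-fold rise was lost under both.

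In other classes Bmp7 was lower, and where perineurial-like cells were found they came next. At 3 DPI the next level was 18.2 CPM (21 UMIs, 7 of them in 1 cell) in the dividing mesenchymal class, and the immune-like class had 16.9 CPM (10 UMIs). In uninjured nerve perineurial-like cells had 44.7 CPM (16.4 to 97.3) and epineurial-like cells 29.2 CPM (9.47 to 68.1), from 6 and 5 UMIs, and their intervals overlap that of endoneurial-like cells. Neonatal perineurial-like cells had 8.17 CPM from 3 UMIs in the FACS and 21.4 CPM from 10 UMIs in the bead library. The endoneurial-like level was 3.27 and 1.26 times these. VSM/pericyte-like cells had 0 UMIs in all 4 libraries, with upper ends of the intervals at 7.52 to 16.1 CPM.

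Gdf10, which encodes a BMP3-like member of the family, had its main source in the Comp-led class. There it was found at 935 CPM (855 to 1021, 503 UMIs) in 62.5% of cells at 3 DPI and at 905 CPM (836 to 979, 633 UMIs) in 59.0% of cells in uninjured nerve. The ratio was 1.03 (0.917 to 1.16), so the level in this class did not change beyond counting error. At 3 DPI the gene was also found in epineurial-like cells at 263 CPM (224 to 307), bridge-like cells at 131 CPM (111 to 154) and dividing mesenchymal cells at 60.0 CPM (46.7 to 75.9), where 1 cell held 19 of 69 UMIs. The immune-like class, which serves as a background, had 23.6 CPM and 2.73% of cells with a UMI at a median depth of 893 UMIs.

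The epineurial-like comparison of Gdf10 depended on where the border to the Comp-led class fell. The uninjured epineurial-like class had 11.7 CPM from 2 UMIs in 88 cells, which gives a ratio of 22.6 (6.14 to 188). With at least 500 genes per cell the ratio was 0.311, with cells classed from their own markers 0.737, and with the epineurial-like and Comp-led classes joined 0.792 (0.709 to 0.884), at 578 CPM against 729 CPM. Comp-led cells were 168 of the 435 joined cells at 3 DPI and 288 of 376 in uninjured nerve, so a ratio of the joined classes also carries their mix. No direction is therefore given for Gdf10 in epineurial cells. Neonatal epineurial-like cells, whose cluster was led by Mfap4, Clec3b and Sfrp4 and had no separate Comp-led class, had 69.0 CPM (52.5 to 89.0) in the FACS and 58.0 CPM (36.4 to 87.8) in the bead library. Set against the joined adult class, these were 0.0945 (0.0711 to 0.124) and 0.0795 (0.0495 to 0.122) times the uninjured level. Against the uninjured epineurial-like class alone the ratios were 5.91 (1.56 to 49.9) and 4.97 (1.22 to 43.6).

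**Figure D2:**
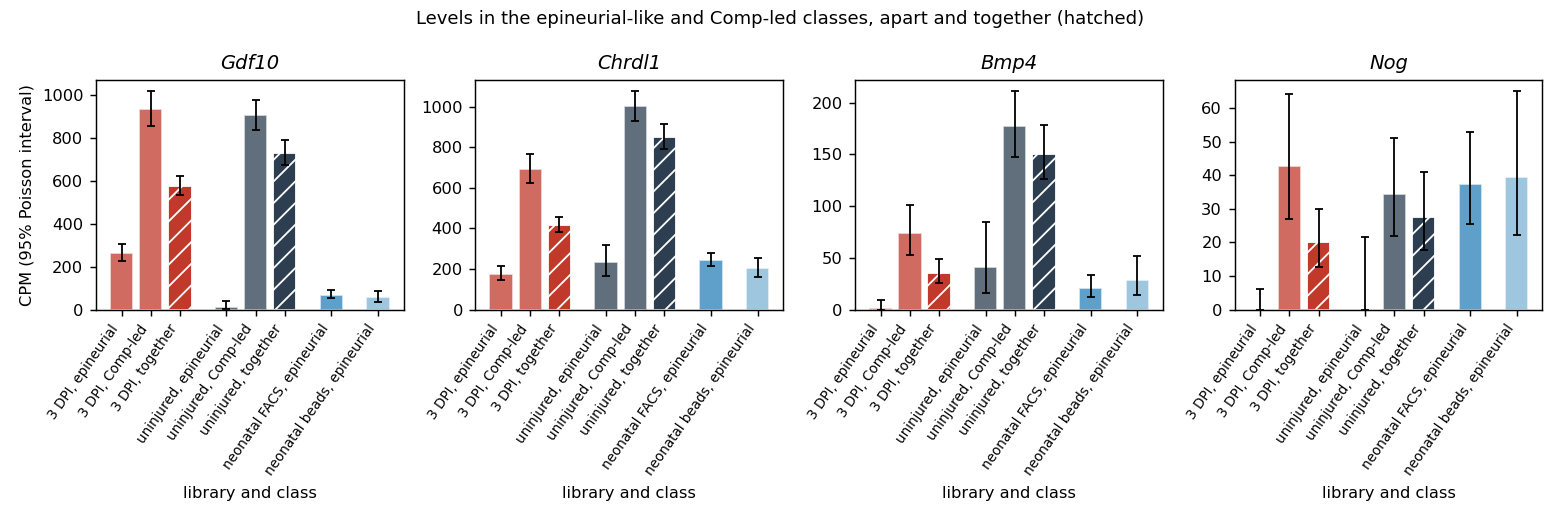
CPM with 95% Poisson intervals of Gdf10, Chrdl1, Bmp4 and Nog in the epineurial-like and Comp-led classes apart and, hatched, together, by library. The Comp-led bars are the tallest for Gdf10, at 935 and 905 CPM, and the neonatal epineurial-like bars reach 69.0 and 58.0 CPM.

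Bmp1, the procollagen C-proteinase, was found in every mesenchymal-like class of the 4 libraries. Epineurial-like cells were highest, at 563 CPM (505 to 625) at 3 DPI, 566 CPM (459 to 691) in uninjured nerve, 272 CPM (239 to 310) in FACS and 287 CPM (236 to 347) in bead cells. The adult levels did not differ beyond counting error. Bridge-like cells had 288 CPM, Comp-led cells 247 CPM at 3 DPI and 245 CPM in uninjured nerve, dividing mesenchymal cells 187 CPM and uninjured perineurial-like cells 365 CPM (270 to 483). Endoneurial-like cells were low, at 79.3, 78.8, 65.7 and 55.9 CPM in the 3 DPI, uninjured, FACS and bead libraries.

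Schwann-like cells differed most between the adult libraries. Their Bmp1 level was 288 CPM (241 to 341, 133 UMIs) at 3 DPI against 48.3 CPM (29.5 to 74.5, 20 UMIs) in uninjured nerve, a ratio of 5.97 (3.71 to 10.1). A UMI was found in 63 of 143 cells (44.1%) at 3 DPI and 15 of 358 cells (4.19%) in uninjured nerve, at median depths of 1925 and 983.5 UMIs, and in 12.6% and 1.76% of cells after thinning to 500 UMIs. As a background, 4.29% of the 3 DPI immune-like cells had a UMI, and 2.40% after thinning, at a median depth of 893 UMIs. The Schwann-like classes also differed in their own markers, which summed to 3896 CPM at 3 DPI and 28279 CPM in uninjured nerve, and the part of this difference in the Bmp1 level was not tested. The higher 3 DPI level was kept in every other processing, at 5.20 to 14.4, and no cell held more than 12 of the UMIs. Within the 3 DPI library, Schwann-like cells had 45.8 Bmp1 UMIs per 1000 UMIs of the 5 mesenchymal genes, against 1.82 to 9.87 in the mesenchymal-like classes.

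Neonatal Schwann-like cells lay between, at 73.4 CPM (62.5 to 85.7) in the FACS and 102 CPM (92.0 to 112) in the bead library. The ratios to uninjured nerve were 1.52 (0.953 to 2.56) and 2.11 (1.35 to 3.48), the second becoming 1.77 with cells classed from their own markers. The Scn7a-led cluster of neonatal Schwann-like cells had 113 CPM (99.4 to 128) in the bead library. In endothelial-like cells Bmp1 was 49.2 CPM at 3 DPI, 25.1 in uninjured, 72.3 in FACS and 62.1 in bead cells.

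Nog encodes noggin, which binds BMP2, BMP4 and BMP7 and blocks their receptor contacts. It was sparse, with 34 UMIs at 3 DPI, 27 in uninjured, 51 in FACS and 49 in bead cells of the named classes. In adult nerve most of its UMIs were in Comp-led cells, with 42.8 CPM (27.1 to 64.2, 23 UMIs) in 11.3% of cells at 3 DPI and 34.3 CPM (22.0 to 51.1, 24 UMIs) in 4.51% of uninjured cells. The ratio of 1.25 (0.672 to 2.30) shows no change beyond counting error. The other 3 DPI UMIs were in endoneurial-like (4), bridge-like (4) and dividing mesenchymal cells (3), and the other 3 uninjured UMIs in endothelial-like cells.

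Neonatal Nog was in epineurial-like cells, at 37.4 CPM (25.6 to 52.8, 32 UMIs) in the FACS and 39.6 CPM (22.1 to 65.2, 15 UMIs) in the bead library. The 88 uninjured epineurial-like cells had 0 UMIs, so the FACS ratio is at least 2.14, but against the joined epineurial-like and Comp-led classes, at 27.6 CPM, it is 1.36 (0.774 to 2.41). Neonatal Schwann-like cells also had Nog UMIs, at 7.34 CPM (4.19 to 11.9, 16 UMIs in 14 cells) and 7.47 CPM (5.04 to 10.7, 30 UMIs in 30 cells), where the adult Schwann-like classes had 0. The interval of a count of 0 in 358 uninjured cells reaches 8.90 CPM, so a difference was not detectable at this depth. Per 1000 mesenchymal UMIs neonatal Schwann-like cells had 0.692 and 0.696 Nog UMIs against 0.257 and 0.331 in the epineurial-like class, and endothelial-like, VSM/pericyte-like and immune-like cells had 0.

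Grem1, the gene of gremlin 1, which binds BMP2 and BMP4, was at the limit of detection with 14 UMIs in all. Of 9 UMIs at 3 DPI, 7 were in 4 of the 319 bridge-like cells (6.16 CPM, 2.48 to 12.7), with 4 of them in 1 cell, and 1 each in endoneurial-like and epineurial-like cells. The FACS library had 4 UMIs in 1 epineurial-like cell and the bead library 1 UMI in a VSM/pericyte-like cell. Grem1 was not listed in the uninjured matrix. Over all mesenchymal-like cells the level was 1.82 CPM (0.831 to 3.45) in 1180 cells at 3 DPI, and in 862 uninjured cells the interval of a count of 0 reaches 1.78 CPM, so no difference was detectable.

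Chrdl1 encodes chordin-like 1 (also known as ventroptin), an antagonist of BMP4, and like Gdf10 had its highest adult level in Comp-led cells. In uninjured nerve the genes parted in perineurial-like cells, where Gdf10 had 59.6 CPM from 8 UMIs in 2 cells, and in epineurial-like cells. Comp-led cells had 693 CPM (625 to 768, 373 UMIs) in 62.5% of cells at 3 DPI and 1003 CPM (930 to 1080, 701 UMIs) in 64.6% of cells in uninjured nerve. The ratio of 0.692 (0.608 to 0.785) lies below 1 beyond counting error, but not past 2-fold. Epineurial-like cells had 177, 233, 245 and 203 CPM in the 3 DPI, uninjured, FACS and bead libraries, and bridge-like cells 218 CPM. With the epineurial-like and Comp-led classes joined the level was 418 CPM at 3 DPI, 851 in uninjured, 245 in FACS and 203 in bead cells, so the 3 DPI ratio was 0.492 (0.437 to 0.552) and the neonatal ratios 0.288 and 0.239. The joined 3 DPI ratio lies below that of either class alone, which in epineurial-like cells was 0.757 (0.522 to 1.12), and the Comp-led share of the joined cells was smaller at 3 DPI.

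Uninjured perineurial-like cells were the second source of Chrdl1, at 603 CPM (479 to 750) with 81 UMIs, of which 20 were in 1 cell. Neonatal perineurial-like cells had 73.6 CPM (48.5 to 107) and 57.8 CPM (38.1 to 84.0), at ratios of 0.122 (0.0758 to 0.191) and 0.0957 (0.0595 to 0.150). Endoneurial-like cells had little, at 12.6 CPM at 3 DPI, 11.3 in uninjured, 2.43 in FACS and 0 in bead cells. The uninjured Schwann-like class had 72.4 CPM (48.8 to 103, 30 UMIs), and the 3 DPI class 13.0 CPM (4.77 to 28.3, 6 UMIs). The ratio of 0.179 (0.0611 to 0.438) was under 0.5 in every other processing, and the neonatal ratios were 0.0634 (0.0276 to 0.133) and 0.0344 (0.0150 to 0.0723). Per 1000 mesenchymal UMIs the uninjured Schwann-like class had 12.7 Chrdl1 UMIs, the Comp-led class 10.2, the perineurial-like class 19.0, and the endothelial-like class 14.7. These ratios are of like size, and the part of stray mesenchymal RNA in the uninjured Schwann-like and endothelial-like levels was not tested.

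Fstl1 encodes a secreted follistatin-like glycoprotein that has been described as a BMP4 inhibitor, and it had a UMI in 74.7% to 98.1% of the cells of each mesenchymal-like class. The 3 DPI levels were 7709 CPM (7490 to 7932) in epineurial-like, 6142 in bridge-like, 4514 in Comp-led, 3587 (3492 to 3683) in endoneurial-like and 3246 in dividing mesenchymal cells. Uninjured levels were 4155 CPM (3856 to 4472) in epineurial-like, 2666 in Comp-led, 1356 in perineurial-like and 1029 (969 to 1092) in endoneurial-like cells. Every mesenchymal-like class with a partner was thus higher at 3 DPI, by 1.86 (1.71 to 2.01), 1.69 (1.59 to 1.80) and 3.49 (3.27 to 3.72) times in epineurial-like, Comp-led and endoneurial-like cells. After thinning to 500 UMIs per cell the endoneurial-like ratio was 3.85.

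Fstl1 was also higher in vascular classes, from 272 CPM (244 to 302) to 636 CPM (590 to 684) in endothelial-like and from 580 CPM (490 to 682) to 1562 CPM (1404 to 1733) in VSM/pericyte-like cells. The ratios were 2.34 (2.06 to 2.66) and 2.69 (2.22 to 3.29), and were past 2 in every other processing. Schwann-like cells went the other way, with 152 CPM (118 to 191) at 3 DPI and 297 CPM (247 to 354) in uninjured nerve, a ratio of 0.511 (0.375 to 0.690). Per 1000 mesenchymal UMIs, 3 DPI Schwann-like cells had 24.1 Fstl1 UMIs, less than any mesenchymal-like class (45.4 to 135), and endothelial-like cells had 246. The 3 DPI immune-like cells had 235 CPM and 78.9 per 1000, within the range of the mesenchymal-like classes.

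**Figure D3:**
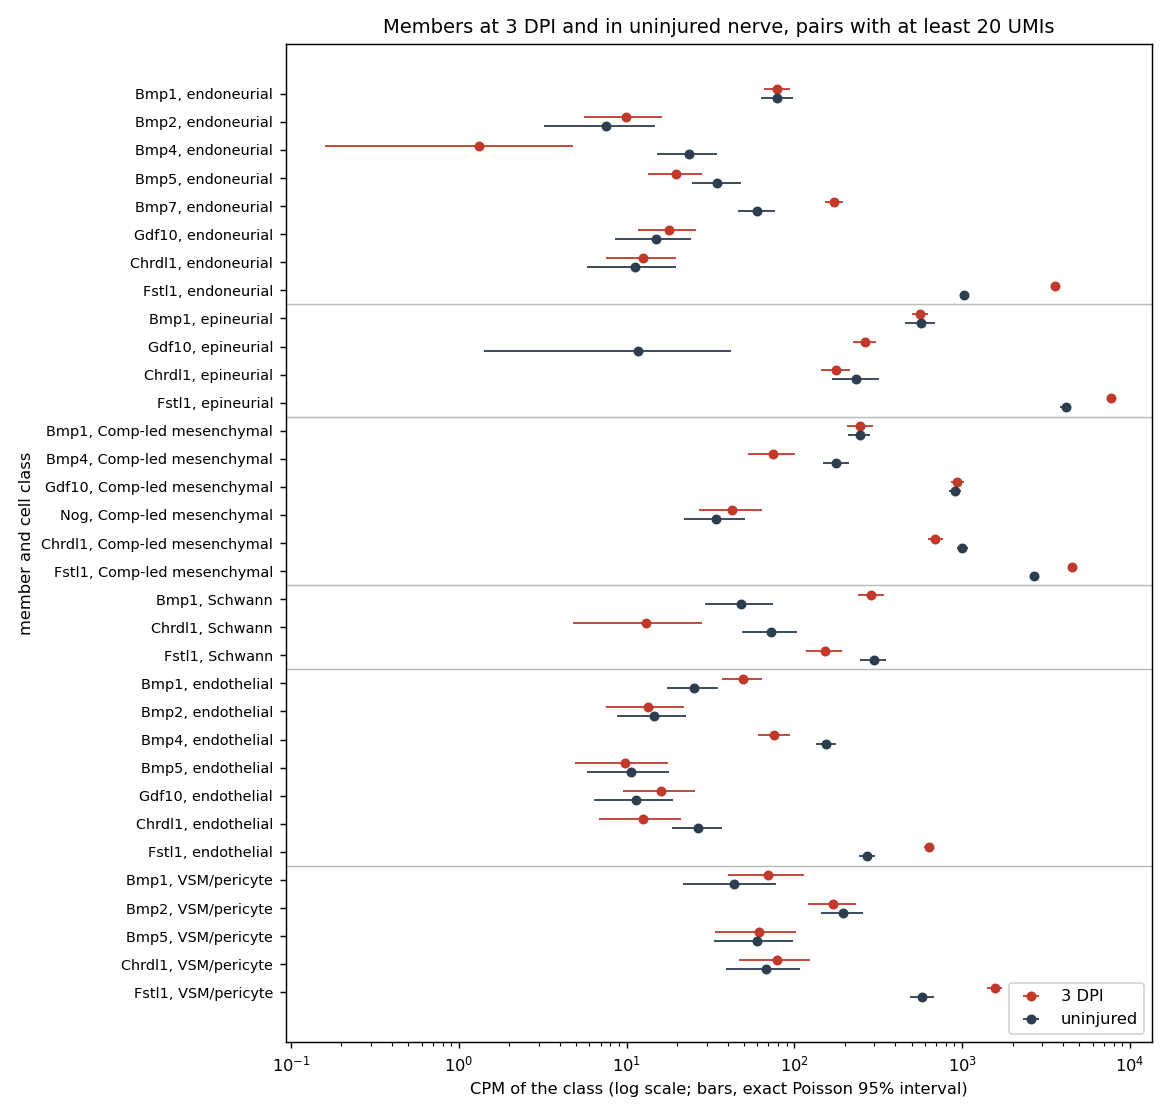
CPM (log axis, 95% Poisson intervals) of the 33 gene and class pairs with at least 20 UMIs, at 3 DPI and in uninjured nerve. Among the pairs whose intervals do not overlap are Bmp1 in Schwann-like cells (288 against 48.3 CPM), Fstl1 in endoneurial-like cells (3587 against 1029) and Bmp4 in endoneurial-like cells (1.32 against 23.5).

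The 3 DPI library was compared with the uninjured library in the 6 classes used from both. A pair of gene and class was called when the levels differed at least 2-fold with at least 20 UMIs in sum, which 33 pairs reached. Of these, 6 were higher and 5 lower at 3 DPI, where 13.0% and 8.29% of the 44041 pairs of all genes were. The 6 higher pairs were Bmp7 in endoneurial-like, Gdf10 in epineurial-like and Bmp1 in Schwann-like cells, and Fstl1 in each of the endoneurial-like, VSM/pericyte-like and endothelial-like classes. The 5 lower pairs were Bmp4 in endoneurial-like, Comp-led and endothelial-like cells and Chrdl1 in Schwann-like and endothelial-like cells. In 7 of the 11 pairs the call held in every other processing that gave a value, and it was lost in some for Bmp7 in endoneurial-like, Gdf10 in epineurial-like and Bmp4 and Chrdl1 in endothelial-like cells. The last, at 12.5 against 26.7 CPM, had a ratio of 0.470 (0.234 to 0.896) that became 0.675 with cells classed from their own markers.

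By class, the share of all tested genes that passed the same call was 17.5% higher and 8.57% lower in endoneurial-like cells, where 2 and 1 of 8 BMP genes did. In epineurial-like cells the shares were 13.2% and 6.50%, for 1 and 0 of 4 genes, and in Comp-led cells 8.23% and 5.45%, for 0 and 1 of 6. In Schwann-like cells they were 18.7% and 14.0%, for 1 and 1 of 3, in endothelial-like cells 7.75% and 5.97%, for 1 and 2 of 7, and in VSM/pericyte-like cells 13.3% and 11.0%, for 1 and 0 of 5. The median log2 ratio of the BMP genes was 0.20 in endoneurial-like, 0.44 in epineurial-like, 0.03 in Comp-led, -0.97 in Schwann-like, -0.11 in endothelial-like and 0.22 in VSM/pericyte-like cells. Over all genes it was 0.23, 0.05, 0.07, 0.13, 0.03 and 0.07. The number of called pairs is thus small, and as a group the 10 genes did not move one way.

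Each neonatal library was set against the uninjured adult library in turn, and as both comparisons share the uninjured cells they are not independent. Of 26 pairs in the FACS comparison, 7 were at least 2-fold higher and 8 lower in neonatal cells, where 15.3% and 13.8% of 42569 pairs of all genes were. Of 25 pairs in the bead comparison, 9 were higher and 8 lower, where 15.3% and 12.2% of 44421 were. Fstl1 was higher in the same 4 classes in both, by 3.51 (FACS) and 3.24 times (beads) in endoneurial-like, 2.99 and 2.99 in perineurial-like, 2.91 and 3.81 in endothelial-like and 3.48 and 2.77 in VSM/pericyte-like cells. These ratios were above 2 in every other processing that gave a value. In epineurial-like cells the Fstl1 ratios were 1.36 (1.26 to 1.48) and 1.18 (1.08 to 1.29).

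Among the ligands, Bmp7 and Bmp5 were at least 2-fold lower in endoneurial-like cells of both neonatal libraries, and Bmp4 in those of the bead library. Of these, the FACS value of Bmp5 changed direction after thinning to 500 UMIs. Endoneurial-like Bmp7 was at 0.446 (0.212 to 0.852) and 0.449 (0.233 to 0.810) times the uninjured level, and became 0.514 without doublet removal in the FACS and 0.518 and 0.546 with 500 genes or thinning in the bead library. Endoneurial-like Bmp4 was at 0.519 (0.155 to 1.38) and 0.329 (0.0831 to 0.952), on 5 and 4 UMIs, and the first interval includes 1. Summed over all mesenchymal-like classes, Bmp4 was 75.8 CPM (64.4 to 88.6) in uninjured nerve, 15.3 (9.90 to 22.6) in FACS, 11.0 (6.15 to 18.1) in bead and 8.69 (6.29 to 11.7) in 3 DPI cells, although the classes in these sums differ. Uninjured nerve was thus the library with the most mesenchymal Bmp4.

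The direction of Bmp1 differed between classes and, in epineurial-like cells, rested on the border to the Comp-led class. It was lower in neonatal epineurial-like cells, at ratios of 0.481 (0.378 to 0.616) and 0.508 (0.383 to 0.675), and in perineurial-like cells, at 0.470 (0.319 to 0.698) and 0.615 (0.434 to 0.882). It was higher in endothelial-like cells, at 2.88 (1.66 to 4.93) and 2.47 (1.60 to 3.88), and in VSM/pericyte-like cells of the bead library, at 2.24 (1.15 to 4.78). The FACS epineurial-like ratio was 0.532 to 0.956 in 6 other settings, among them 0.885 against the joined epineurial-like and Comp-led classes. The bead ratio against the joined classes was 0.934 (0.740 to 1.17), so neither library differed from them beyond counting error. The FACS perineurial-like ratio was 0.527 to 0.701 in 4 settings. The endothelial-like ratios became 1.98 and 1.90 with cells classed from their own markers. Chrdl1 was lower in neonatal perineurial-like and Schwann-like cells in both libraries, in every processing that gave a value. In the bead library 1 UMI of Chrdl1 was found in 478 endothelial-like cells, a ratio of 0.0369 (0.000910 to 0.220).

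**Figure D4:**
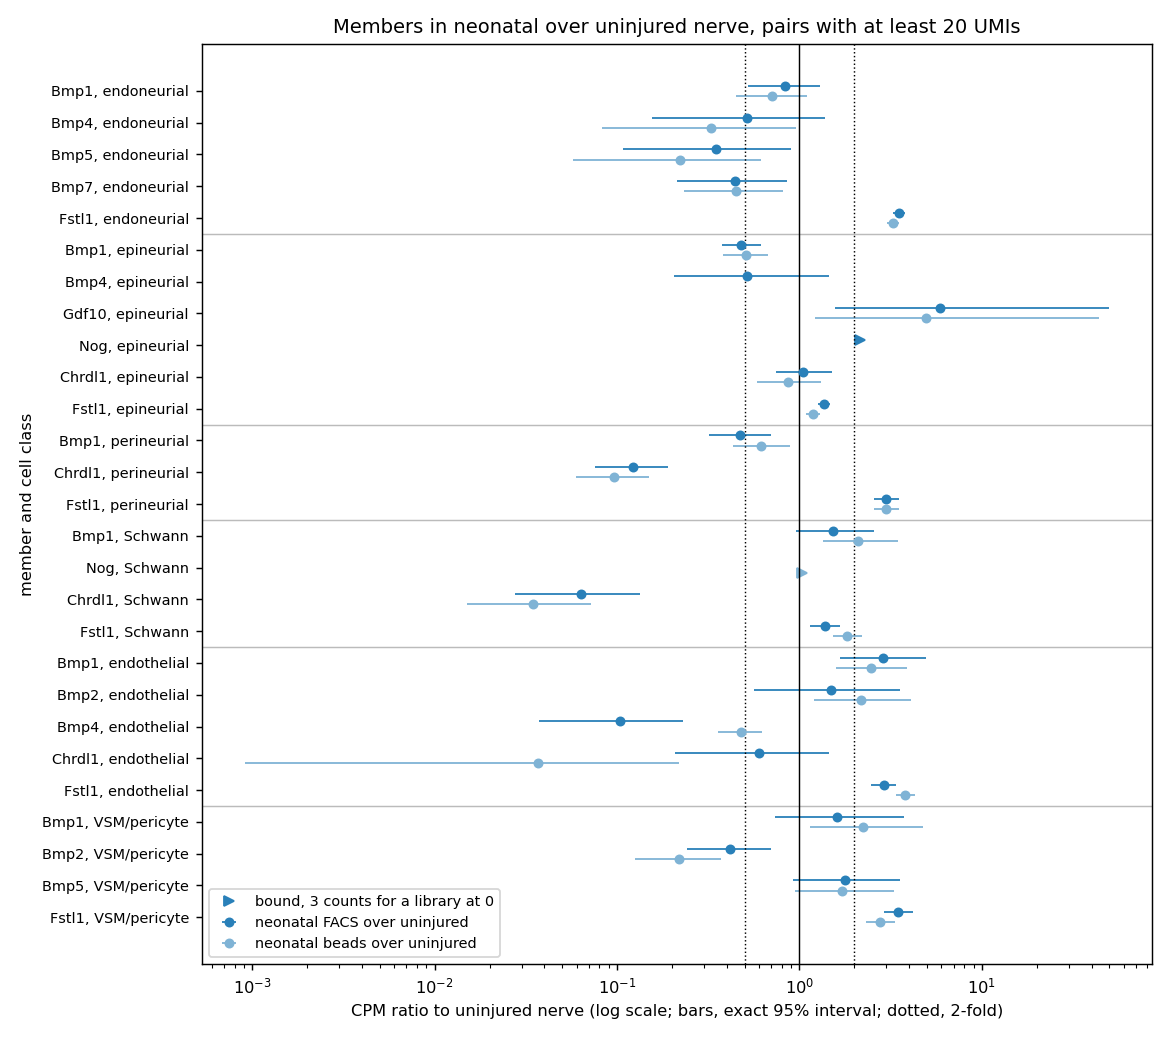
Ratio of neonatal to uninjured CPM (log axis, 95% intervals, triangles for bounds from a floor of 3 counts) by gene and class for the FACS and the bead library. Fstl1 lies between 2.77 and 3.81 in the 4 classes where it passed 2-fold, and Chrdl1 in perineurial-like and Schwann-like cells between 0.0344 and 0.122.

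The other genes of the pathway were taken from lists of 10 ligands, 16 extracellular modulators, 8 receptors and co-receptors, 7 intracellular mediators and inhibitors and 8 target genes, of which 46 of 49 genes were listed in the matrices. Other ligands were rare: of the 10, 1 had at least 50 UMIs at 3 DPI, 0 in uninjured nerve, and 2 in each neonatal library. These were Bmp3, at 265 CPM in neonatal perineurial-like cells of the bead library, and Gdf11, at 48.7 CPM in FACS endoneurial-like cells. Bmp6 did not exceed 11.7 CPM in any class. The levels, ratios and calls of these 49 genes, here and below, are given for the main setting only. How far they depend on the processing is not given.

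Extracellular modulators were more common, with 12, 10, 9 and 9 of 16 at 50 UMIs in the 3 DPI, uninjured, FACS and bead libraries, and 8, 8, 5 and 5 of these highest in a mesenchymal-like class, where 37.4%, 37.0%, 26.7% and 28.7% of all genes with at least 20 UMIs were. Nbl1, a gene of the gremlin family, was at 2339 CPM in uninjured perineurial-like cells. Sostdc1, which encodes a secreted BMP and Wnt antagonist, was the Schwann cell gene of the list. It was at 1479 CPM in uninjured and 545 CPM in 3 DPI Schwann-like cells, a ratio of 0.369 (0.317 to 0.428), and at 1166 and 2189 CPM in FACS and bead cells. Fst, the gene of follistatin, was at 154 CPM in 3 DPI and 596 CPM in uninjured Comp-led cells, a ratio of 0.259 (0.202 to 0.328). Its ratio was 0.218 in Schwann-like, 0.335 in endoneurial-like, 0.738 in VSM/pericyte-like, 0.605 in endothelial-like and 0.905 in epineurial-like cells. In the endoneurial-like class 2 of 9 modulators were at least 2-fold lower and 0 higher at 3 DPI, where 8.57% and 17.5% of all genes were. In the Schwann-like class 2 of 6 were lower and 1 higher, where 14.0% and 18.7% of all genes were. In the epineurial-like class 1 of 7 was lower and 1 higher (all genes, 6.50% and 13.2%). In Comp-led cells 1 of 10 was lower and 0 higher (5.45% and 8.23%). In endothelial-like cells 1 of 7 was lower and 0 higher (5.97% and 7.75%). In VSM/pericyte-like cells 0 of 5 passed 2-fold (11.0% lower and 13.3% higher).

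Of the 8 receptors and co-receptors, 6 had at least 50 UMIs in each library. Eng and Acvrl1, the endothelial co-receptor and receptor of the BMP9 and BMP10 branch, were highest in endothelial-like cells, with Eng at 623 CPM at 3 DPI and 483 CPM in uninjured nerve. Acvrl1 was at 127 against 257 CPM, a ratio of 0.495 (0.404 to 0.604) whose interval reaches above 0.5. Bmpr1a, a type I receptor of BMP2 and BMP4, was at 177 CPM in 3 DPI and 91.7 CPM in uninjured Schwann-like cells, a ratio of 1.94 (1.30 to 2.92). Acvr1, a type I receptor of BMP7, was at 54.1 against 16.9 CPM in the same cells, a ratio of 3.20 (1.35 to 8.77) on 25 and 7 UMIs. In Comp-led cells the type II receptor Acvr2a was at 61.4 against 172 CPM (0.357, 0.235 to 0.529). Of 6 receptors tested in endothelial-like cells, 1 was called higher (Bmpr1a) and 1 lower (Acvrl1), where 7.75% and 5.97% of all genes were. Acvr1 was called higher in epineurial-like (1 of 5) and Schwann-like cells (1 of 4), where 13.2% and 18.7% were. In Comp-led cells 1 of 6 was lower (Acvr2a) and 0 higher, where 5.45% and 8.23% were. In endoneurial-like and VSM/pericyte-like cells 0 of 6 and 0 of 2 passed 2-fold. Of all genes, 17.5% and 13.3% were higher there and 8.57% and 11.0% lower.

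Among target genes, Id2 and Id4, which encode inhibitors of DNA binding, were at least 2-fold lower at 3 DPI in endothelial-like, VSM/pericyte-like and Schwann-like cells. In endothelial-like cells 4 of 7 tested targets (Id1, Id2, Id4 and Msx1) were lower and 0 higher, where 5.97% and 7.75% of all genes were, with Id1 at 186 against 404 CPM (0.461, 0.391 to 0.542) and Id4 at 16.1 against 95.2 CPM (0.169, 0.0971 to 0.279). Endothelial-like Id3, at 623 against 853 CPM, did not pass 2-fold. In Schwann-like cells 3 of 5 were lower and 0 higher, where 14.0% and 18.7% of all genes were. These were Id2 at 45.5 against 287 CPM (0.158, 0.0945 to 0.253), Id3 at 102 against 584 CPM (0.174, 0.125 to 0.239) and Id4 at 21.6 against 140 CPM (0.155, 0.0705 to 0.305). Schwann-like Id1 was at 26.0 against 45.8 CPM (0.567, 0.251 to 1.23). In VSM/pericyte-like cells 3 of 4 (Id2, Id4 and Msx1) were lower and 0 higher, where 11.0% and 13.3% of all genes were. Id4 was at 271 against 612 CPM (0.443, 0.325 to 0.599), and Id3 had a ratio of 0.556 (0.457 to 0.674). In endoneurial-like cells Id3, the 1 target tested, was at 159 against 776 CPM (0.205, 0.177 to 0.237). Of all genes in this class 8.57% were lower and 17.5% higher. The epineurial-like cells had 0 of 3 past 2-fold, where 6.50% of all genes were lower and 13.2% higher. Comp-led cells had 1 lower (Id2) and 1 higher (Msx1) of 4, where 5.45% and 8.23% of all genes were. Id genes respond to other signals besides BMPs.

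**Figure D5:**
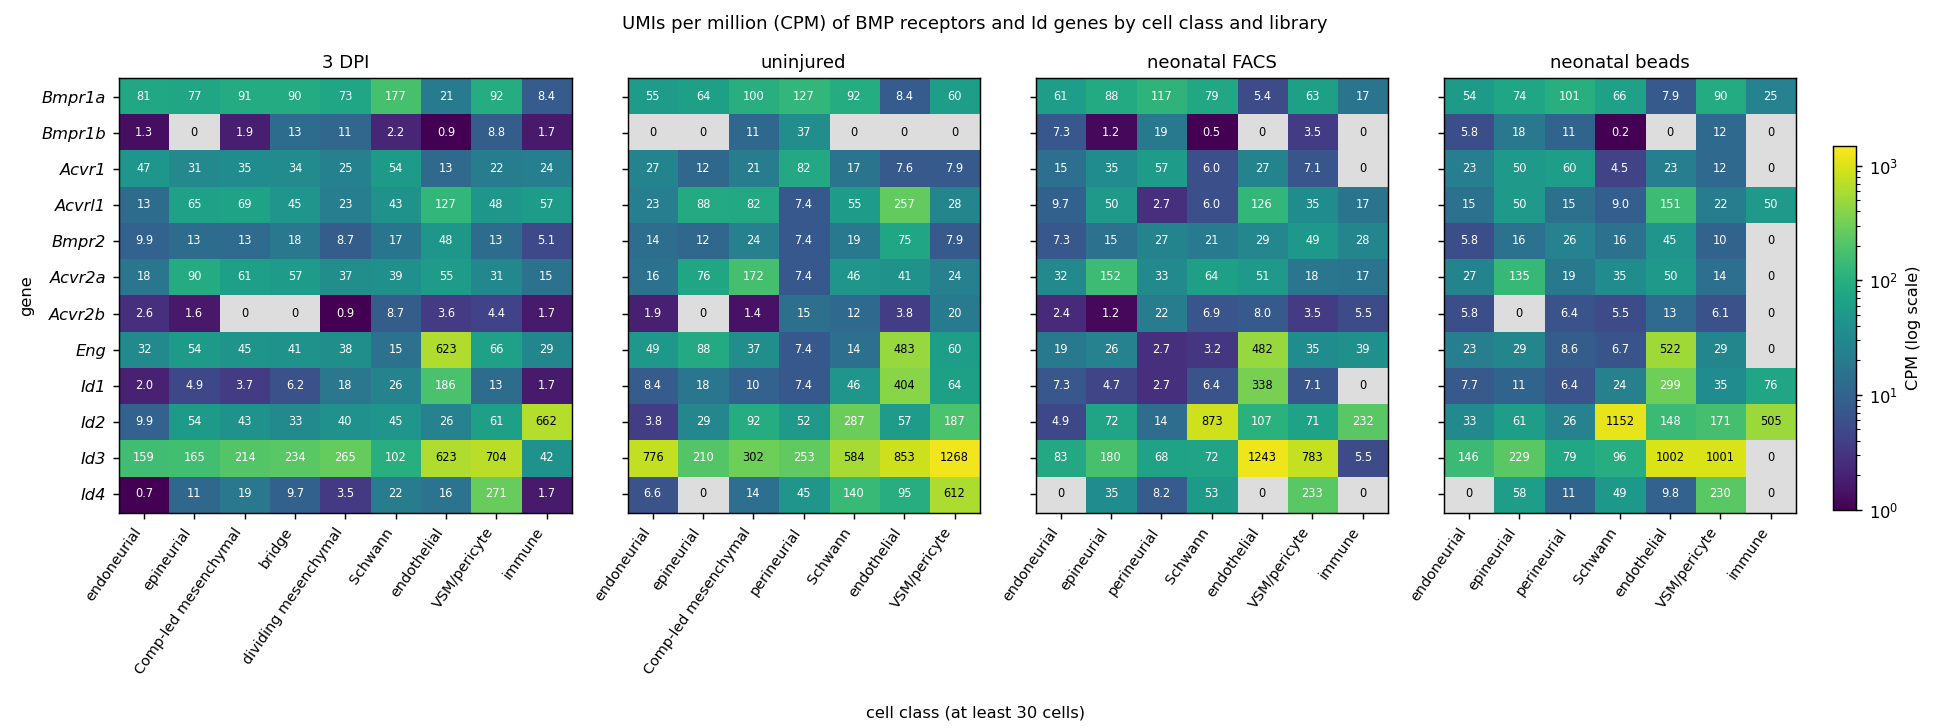
CPM (colour, log scale) of BMP receptors, co-receptors and Id genes by class and library. Eng and Acvrl1 stand out in endothelial-like cells, at 623 and 127 CPM at 3 DPI, and Id3 and Id4 in uninjured VSM/pericyte-like cells at 1268 and 612 CPM.

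Over the 30 class sums of at least 30 cells, the pattern of each gene was compared with 10438 genes by the Pearson correlation of log2(CPM + 10), as a description over sums that share libraries, depth and free RNA. Gdf10 was most like Cilp (r = 0.95), Sfrp4 (0.90) and Bmper (0.90), and Chrdl1 like Sfrp4 (0.90), Slc1a5 (0.86) and Clec11a (0.86). Bmp7 was most like Ptges (0.83), Osr2 (0.82) and Angptl7 (0.79), of which Osr2 was a marker of the endoneurial-like class. Bmp5 was nearest to Ndufa4l2 (0.86), Parm1 (0.85) and Ano1 (0.85), and Bmp2 to Rgs7bp (0.81), Filip1l (0.80) and Lmod1 (0.78). Bmp4 was closest to Spock2 (0.85), Enpp3 (0.78) and Vegfc (0.77), and Bmp1 to Mxra7 (0.86), Ccdc80 (0.84) and Nid1 (0.84). Nog had Cpz (0.86), Mfap4 (0.85) and 3632451O06Rik (0.84), and Fstl1 had Thbs3 (0.89), L3hypdh (0.89) and Maged1 (0.88). Among the chosen genes themselves the closest pairs were Gdf10 with Chrdl1 (0.79), Bmp1 with Fstl1 (0.74) and Bmp1 with Chrdl1 (0.70). Grem1 had too few UMIs for this measure.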

How the data were processed

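Single cells of 4 sciatic nerve libraries were measured by Drop-seq. The deposited files hold raw UMI counts per gene and barcode, which the authors made by aligning reads to the mouse genome (mm10, per the labels) and summing UMIs for a fixed number of barcodes. No normalization had been applied, and neither the version of the aligner nor the gene annotation is given in the labels or methods used here.

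Barcodes with at least 200 genes, at most 10% mitochondrial and at most 5% hemoglobin UMIs were kept, and the 5% with the highest doublet score (scrublet in scanpy 1.11.5) were removed. Counts were normalized with scran 1.30.0 and clustered in Seurat 5.3.0 under R 4.3.3 (genes of at least 3 cells, 2000 variable genes, 20 components, resolution 0.4), with the adult libraries apart and the neonatal libraries together. Clusters were named "-like" from marker lists, and values of some clusters within the Schwann-like class are not reported here. Raw UMIs were then summed per class (Python 3.11.15, numpy 2.4.6, scipy 1.17.1). Intervals are Poisson for CPM, Clopper-Pearson for shares and conditional binomial for ratios, all at 95%. A pair was called at a fold of 2 with at least 20 UMIs. A count of 0 was set to a floor of 3 counts for a ratio, which is then a bound. The ratios and their intervals were tried on simulated Poisson counts with planted changes. These held no spread between animals or preparations, so the trial covers counting error only.

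The text names the 10 chosen genes in every class, receptors, Id genes, the 3 highest genes of each pathway list and the 3 genes most like each chosen gene. The genes and lists were chosen with earlier results of these data known. There were 11 alternative settings, on filters, doublets, normalization, clustering, naming, thinning to 500 UMIs and thresholds, and 3 more that were added after seeing the data: classes of at least 30 cells, the epineurial-like and Comp-led classes together, and each library without the cell with the most UMIs of the gene. Grouping followed the labels, with 1 library a group.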

Additional observations from a re-analysis of the deposited data

Results flagged for a closer look

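For 4 comparisons the same gene went up in 1 class and down in another, with both counting intervals clear of 1. The differences between classes themselves were not tested, as each group had 1 library. Bmp1 in the neonatal FACS library was 2.88 times the uninjured level in endothelial-like and 0.470 times in perineurial-like cells. In the neonatal bead library Bmp1 was 2.47 times the uninjured level in endothelial-like and 0.508 times in epineurial-like cells. Against the epineurial-like and Comp-led classes joined, the latter was 0.934 (0.740 to 1.17), so the opposite direction was not kept for that class. The perineurial-like ratio of Bmp1 in the bead library, given above, had an interval below 1. Bmp2 in the bead library was 2.18 times the uninjured level in endothelial-like and 0.220 times in VSM/pericyte-like cells. The endothelial-like value of Bmp2 became 1.09 without doublet removal. Fstl1 at 3 DPI was 3.49 times the uninjured level in endoneurial-like and 0.511 times in Schwann-like cells. The 3 DPI Schwann-like level of Fstl1 lay below that of the immune-like cells of the same library, and the part of stray RNA in it was not tested.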

How the results depend on the processing

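Of 43 called pairs of a class and 1 of the 10 chosen genes, 26 stayed past 2-fold in every alternative that gave a value, and 38 kept their direction. Over 393 recomputed ratios, 340 stayed within the counting interval, 40 left it in the same direction and 13 changed direction. The cause was not tested. Gdf10 in epineurial-like cells changed direction with at least 500 genes per barcode (0.311 at 3 DPI, 0.137 in FACS and 0.181 in bead cells), with cells classed from their own markers (0.737, 0.107 and 0.0358) and with the Comp-led class joined (0.792, 0.0945 and 0.0795). It was 0.803 in FACS cells after thinning. Nog in FACS epineurial-like cells became 0.895 with 500 genes and 0.723 after thinning, and Bmp5 in FACS endoneurial-like cells 1.545 after thinning.

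Of 106 recomputed counts, 89 stayed within 1.5 times. Of the lower pairs, the 5 at 3 DPI became 3 at 5% mitochondrial UMIs, 10 with cells classed from their own markers, 2 after thinning, 10 at a minimum of 5 UMIs and 2 at a fold of 3. The 8 lower pairs of FACS cells became 16, 4, 16 and 3 with own markers, thinning, 5 UMIs and a fold of 3. The 8 of bead cells became 5 at 5% mitochondrial UMIs, 15 with own markers and 20 at 5 UMIs. At a fold of 3 the higher pairs were 3 at 3 DPI, 3 in FACS and 3 in bead cells, from 6, 7 and 9. The main setting tested 33, 26 and 25 pairs. The pairs tested and the share of all genes called under the other settings are not given. These counts thus show how the calls depend on the setting and are no result about the 10 genes. After thinning, 3 genes in each neonatal library peaked in a mesenchymal-like class, from 7 and 6, as fewer genes reached 20 UMIs. No Comp-led class was found at 3 DPI with 500 genes, 5% mitochondrial UMIs or library size normalization, and the last gave no neonatal perineurial-like class, so those values are missing. Depth limits the genes with few UMIs, above all Grem1 and Nog. No paired analysis was possible because each group had 1 library.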
